A study of Macaca fascicularis with 16 samples.

Results

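Blood mononuclear cells taken 1 day after NKTT320 were compared with those taken 2 hours after it in the same 4 Mauritian-origin cynomolgus macaques (Macaca fascicularis), named LG04, LG11, LG12 and LG15. The comparison uses the 4 libraries titled as 1 day and the 4 titled as 2 hours, chosen by those titles, which are 8 of the 16 libraries of the study. The other 8 were taken before treatment and 30 minutes after it, and they entered the fit to estimate the spread and each animal's level. All 4 animals received NKTT320, and untreated animals were not analysed here, so the antibody, the passage of time and the repeated bleeding cannot be told apart. The labels give no dose, age, sex or hour of bleeding. Each library holds total RNA, depleted of ribosomal RNA, from unfractionated mononuclear cells separated on a density gradient and frozen, and each was prepared as a strand-specific library. A time has 1 library per animal, so the replicate is the animal.

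NKTT320 is a humanized antibody against the semi-invariant antigen receptor carried by invariant natural killer T cells (iNKT cells), a small lymphocyte population that recognises lipids presented by CD1D and releases cytokines quickly when activated. Blood mononuclear cells are mostly T cells, B cells, NK cells and monocytes, and the iNKT cells are a small part of them. In such a mixture, fewer cells of a type and less RNA per cell cannot be told apart. Several gene groups followed here have well-known triggers. Type I interferon acts through STAT2, IRF9 and other factors to switch on antiviral genes, heat-shock proteins fold other proteins, and immediate-early genes are transcribed within minutes of a signal.

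Values are library-size-normalised read counts (CPM, scaled by TMM factors), given in the order LG04, LG11, LG12 and LG15. Total counts of the 8 libraries ran from 1417467 in LG12 at 1 day to 7436071 in LG11 at 1 day. In the shallowest of them, 3 counts are worth 2.12 CPM before scaling. Globin genes took from 0.0256% of counts (LG12 at 2 hours) to 48.7% (LG04 at 2 hours).

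The library labelled LG04 at 1 day went against its label. Of 40 genes whose level separated LG04 from LG15 by 6-fold or more in every earlier library, 37 lay nearer to LG15 in that library and 3 nearer to LG04. The cationic amino acid transporter family gene SLC7A4 had 81.1, 202 and 303 CPM in LG04 before treatment, at 30 minutes and at 2 hours, and 0 counts in the library labelled LG04 at 1 day. EYA4, a transcriptional coactivator and phosphatase, ran the other way, with at most 1 count in the earlier LG04 libraries and 125.5 CPM (191 counts) in that library, beside 92.1 CPM in LG15 at 1 day. In the 2 hour library of LG04, 79 of 83 such genes, picked from the earlier times, lay nearer to LG04. In the 1 day library of LG15, 28 of the 40 lay nearer to LG15. Against LG11, 34 of 73 separating genes lay nearer to LG04 in the library labelled LG04 at 1 day. Over all counted genes, its chi-square per gene was 11.32 against LG15 at 1 day, the smallest of the 28 pairs among the 8 libraries, and 157.56 against LG04 at 2 hours, a measure that also grows with depth. The pairs of 1 animal's libraries gave 16.72 in LG11, 19.22 in LG12 and 36.93 in LG15. How the library came to differ from its label was not tested. Calls of edgeR's fit over all 16 libraries, and list medians below, are therefore given with and without it. Leaving it out keeps 3 libraries at 1 day and 4 at 2 hours. DESeq2 was run only with it.

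**Figure D1:**
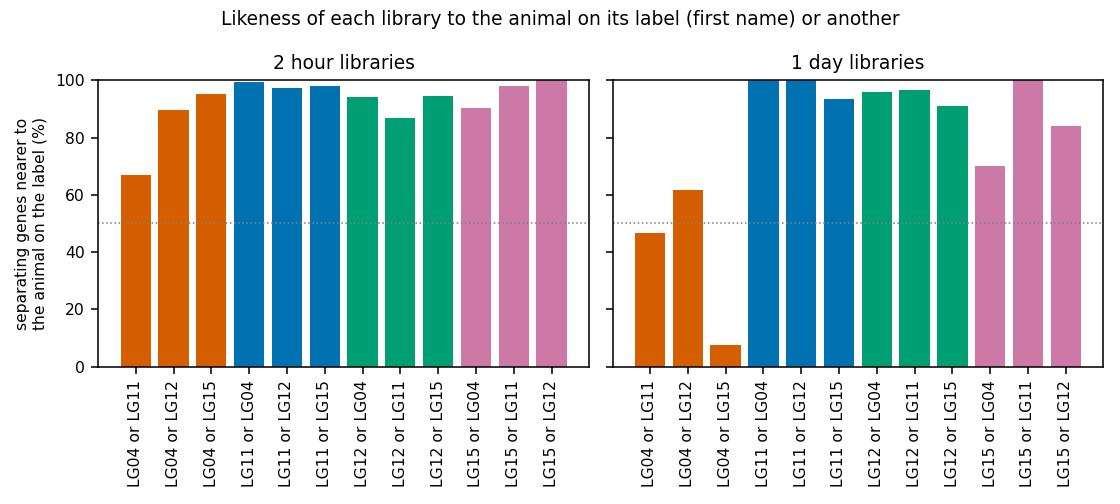
Share of animal-separating genes (y axis, percent) that lay nearer to the animal on a library's label than to another animal. Each bar is 1 library against 1 other animal (x axis, labelled animal first), for the 2 hour (left) and 1 day (right) libraries. The dotted line marks 50%. The library labelled LG04 at 1 day reached 7.5% against LG15.

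Between 2 hours and 1 day, transcripts of 2 chaperone genes rose and those of 5 interferon-response genes fell. Of 11545 genes tested, 12 passed an adjusted p of 0.05 (0.104%), 4 of them higher at 1 day (0.0346%) and 8 lower (0.0693%). The 4 that rose were the chaperone HSPH1, the HSP90 co-chaperone FKBP4, the peptide transporter SLC15A2 and the small nucleolar RNA SNORA68. Those that fell were the interferon-stimulated genes IFI44L, IFI44, MX1 and XAF1, the interferon transcription factor IRF9, the nuclear receptor NR4A2, the transcription factor NFIL3 and the cold-inducible RNA-binding protein RBM3. All 12 moved the same way under all 4 animal labels, where 11.3% of all genes tested were higher in all 4 and 9.16% were lower in all 4. The 12 were called from these same differences, so their shared direction is a description and adds no support. Without the library labelled LG04 at 1 day, 6 of 11910 genes passed (0.0504%), and these were HSPH1, FKBP4, SLC15A2, IFI44, IRF9 and NR4A2. The other 6 kept their direction in that fit. DESeq2, run as a second tool, called 65 genes higher (0.367%) and 65 lower (0.367%) of 17729 with an adjusted p, including all 12. The shares of 0.367% below are over those 17729 genes. List members are counted only among the 11545 genes tested in edgeR, of which DESeq2 called 54 higher and 52 lower. Leaving out an animal at all 4 times left 2 calls without LG04 (NR4A2 and HSPH1), 1 without LG11 (NFIL3) and 0 without LG12 or LG15, where edgeR's smallest adjusted p were 0.058 (HSPH1) and 0.069 (IRF9) and 1221 and 1010 genes had an unadjusted p under 0.05.

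**Figure D2:**
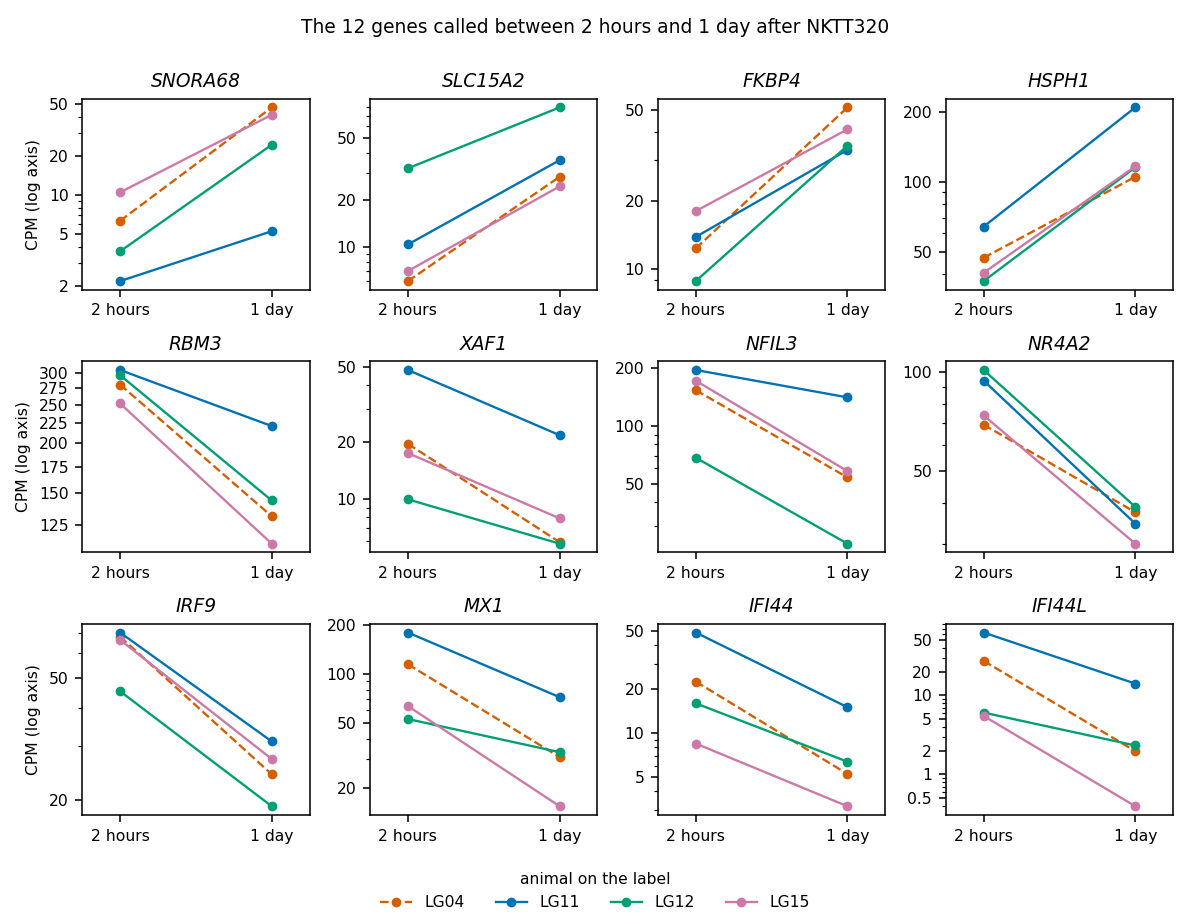
CPM (y axis, log scale, a range of its own in each panel) of the 12 genes called at 2 hours and 1 day (x axis). Each line joins the 2 libraries labelled with 1 animal, and LG04 is dashed. In each panel the 4 lines run in 1 direction. HSPH1 went from 37.2 to 64.0 CPM at 2 hours to 105.1 to 209.6 CPM at 1 day.

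HSPH1 (human gene identifier 10808), a nucleotide exchange factor for HSP70, had 46.99, 64.02, 37.2 and 40.5 CPM at 2 hours and 105, 209.6, 116 and 117 CPM at 1 day. Every 1 day library lay above every 2 hour library, and LG11 was the highest at both times. The mean rose from 47.2 ± 11.9 to 137 ± 48.9 CPM (SD, n = 4), a log2 fold change of 1.52 ± 0.18 (SE, adjusted p = 0.0066). Without the library labelled LG04 at 1 day it was 1.61 ± 0.19 (adjusted p = 0.016). The mean was 102 ± 15.15 CPM before treatment and 58.5 ± 10.8 CPM at 30 minutes, so the 2 hour mean was the lowest.

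FKBP4 (identifier 2288), the immunophilin FKBP52 that binds HSP90 in steroid receptor complexes, had 12.3, 13.9, 8.88 and 17.99 CPM at 2 hours and 51.2, 33.4, 34.8 and 41.1 CPM at 1 day. Again the groups did not overlap. Its log2 fold change was 1.61 ± 0.22 (adjusted p = 0.014), and 1.42 ± 0.21 (adjusted p = 0.035) without the library labelled LG04 at 1 day, which was the highest of the 1 day libraries. Before treatment its mean was 26.1 ± 5.03 CPM and at 30 minutes 22.5 ± 4.78 CPM, so the 2 hour mean of 13.3 ± 3.77 CPM was the lowest of the 4 times and the 1 day mean of 40.1 ± 8.14 CPM the highest.

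Of 27 heat-shock and co-chaperone genes listed, 21 were tested, 2 passed upwards and 0 downwards, beside 0.0346% of all genes upwards. The list's median log2 fold change was 0.56, against -0.02 over all genes tested. At an unadjusted p of 0.05, 13 of the 21 were higher and 0 lower, beside 7.12% of all genes higher and 5.48% lower. Without the library labelled LG04 at 1 day, the same 2 genes passed, 12 of 21 were higher at that p, beside 3.46% of all genes higher and 3.47% lower, and the median was 0.48.

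Among the members that did not pass, the 3 with the smallest p work with HSP90. STIP1, the adaptor that joins HSP70 and HSP90, had 45.2, 39.2, 42.2 and 36.97 CPM at 2 hours and 79.5, 98.4, 73.1 and 68.4 CPM at 1 day, with no overlap between the groups (log2 fold change 0.97 ± 0.18, adjusted p = 0.094). HSP90AA1, the stress-inducible cytosolic HSP90, had 232, 271, 210.0 and 209.8 CPM at 2 hours and 421, 481, 327 and 369 CPM at 1 day, also without overlap (0.79 ± 0.15, adjusted p = 0.091). AHSA1, the activator of the HSP90 ATPase, had a log2 fold change of 0.98 ± 0.21 (adjusted p = 0.13). All 3 passed in DESeq2, with adjusted p of 0.0006, 0.0002 and 0.0077. In edgeR without the library labelled LG04 at 1 day, STIP1 gave 0.93 ± 0.21 (adjusted p = 0.28). HSP90AA1 gave 0.68 ± 0.16 (adjusted p = 0.29) in that fit. Values for the constitutive HSP90AB1 (0.56 ± 0.15), the HSP70 family member HSPA8 (0.59 ± 0.17) and the mitochondrial chaperonin HSPD1 (0.61 ± 0.14) were smaller, with adjusted p of 0.22, 0.24 and 0.16.

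Other members of the heat-shock list stood near or below 0. DNAJB1, an HSP40 co-chaperone, had 23.2, 24.96, 18.8 and 23.98 CPM at 2 hours and 15.1, 30.1, 17.4 and 20.9 CPM at 1 day, overlapping groups (-0.11 ± 0.22, adjusted p = 0.91). BAG3, a co-chaperone of selective autophagy, stood at -0.39 and HSF1, the heat-shock transcription factor itself, at 0.14, with adjusted p of 0.79 and 0.93.

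IRF9 (identifier 10379), the DNA-binding part of the complex through which type I interferon acts, had 68.1, 70.2, 45.2 and 66.5 CPM at 2 hours and 24.3, 31.1, 19.1 and 27.3 CPM at 1 day. The lowest 2 hour library, LG12, lay above the highest 1 day library, LG11. IRF9 fell, with a log2 fold change of -1.29 ± 0.16 (adjusted p = 0.0066), and -1.23 ± 0.17 (adjusted p = 0.03) without the library labelled LG04 at 1 day. Its means before treatment and at 30 minutes were 54.5 ± 13.8 and 53.3 ± 14.8 CPM, close to the 2 hour mean of 62.5 ± 11.6, and the 1 day mean was 25.4 ± 5.03 CPM.

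IFI44 (identifier 10561), an interferon-induced antiviral protein, had 22.6, 48.95, 16.02 and 8.49 CPM at 2 hours and 5.26, 15.1, 6.38 and 3.16 CPM at 1 day. LG11 was the highest and LG15 the lowest at both times, and the groups overlapped, yet the level was lower at 1 day in each animal. Its log2 fold change was -1.66 ± 0.20 (adjusted p = 0.0066), and -1.62 ± 0.23 (adjusted p = 0.03) without the library labelled LG04 at 1 day. The neighbouring family member IFI44L (identifier 10964) had 27.4, 62.6, 6.06 and 5.496 CPM at 2 hours and 1.97, 14.1, 2.32 and 0.395 CPM at 1 day. Its 1 day values rest on 3, 118, 4 and 1 counts, so the size of its log2 fold change of -2.50 ± 0.37 is poorly fixed (adjusted p = 0.017), and it did not pass without the library labelled LG04 at 1 day (-2.35 ± 0.41, adjusted p = 0.093).

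MX1 (identifier 4599), a dynamin-like GTPase that blocks viruses, had 114, 179, 52.8 and 63.5 CPM at 2 hours and 30.9, 71.98, 33.1 and 15.4 CPM at 1 day. Each animal fell, with LG11 highest at both times, and the log2 fold change was -1.48 ± 0.22 (adjusted p = 0.017). XAF1 (identifier 54739), an interferon-inducible antagonist of the apoptosis inhibitor XIAP, had 19.6, 48.1, 9.96 and 17.5 CPM at 2 hours and 5.91, 21.8, 5.804 and 7.903 CPM at 1 day, with a log2 fold change of -1.19 ± 0.17 (adjusted p = 0.017). Neither passed without the library labelled LG04 at 1 day, with -1.43 ± 0.25 and -1.11 ± 0.19 and an adjusted p of 0.093 for both.

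Of 36 type I interferon-stimulated genes listed, 35 were tested, 4 fell and 0 rose, beside 0.0693% of all genes lower. Another 29 had a negative log2 fold change and 2 a positive one, and the median was -0.66. At an unadjusted p of 0.05, 20 of 35 were lower and 0 higher, beside 5.48% and 7.12% of all genes. Without the library labelled LG04 at 1 day, 19 were lower, beside 3.47% of all genes. There 1 member (IFI44) passed and the median was -0.68. DESeq2 called 11 of the 35 lower, beside 0.367% of all genes. The median log2 difference was -0.91 in LG04, -1.07 in LG11, -0.42 in LG12 and -0.24 in LG15.

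Among the other members the animals differed widely. The antiviral IFIT1 had 336, 32.4, 6.28 and 20.5 CPM at 2 hours and 36.1, 7.77, 8.13 and 84.95 CPM at 1 day. It was lower at 1 day in LG04 and LG11 and higher in LG12 and LG15, and its log2 fold change was -0.42 ± 0.79 (adjusted p = 0.9). RSAD2, which encodes viperin, had log2 differences of -2.58, -2.14, -2.55 and 1.65 in the 4 animals, so LG15 went the other way. IFI27, long used as a blood marker of interferon exposure, had 108, 31, 5 and 1 counts at 2 hours and 1, 12, 0 and 1 at 1 day, and its log2 fold change of -2.51 ± 0.58 became -1.57 ± 0.46 without the library labelled LG04 at 1 day. IFI27 is also 1 of the genes that separated LG04 from LG15 at the earlier times.

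STAT2, a partner of IRF9, had 235, 348, 327 and 232 CPM at 2 hours and 148, 232, 236 and 149 CPM at 1 day. It was lower at 1 day in each animal, with log2 differences of -0.66, -0.58, -0.47 and -0.64, although the groups overlapped. It did not pass in edgeR (-0.59 ± 0.11, adjusted p = 0.085) and passed in DESeq2 (5e-06). Without the library labelled LG04 at 1 day, edgeR gave -0.58 ± 0.12 (adjusted p = 0.26). The transmembrane restriction factors IFITM1 (0.29 ± 0.18) and IFITM3 (0.11 ± 0.25) were the only tested members with a positive log2 fold change.

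**Figure D3:**
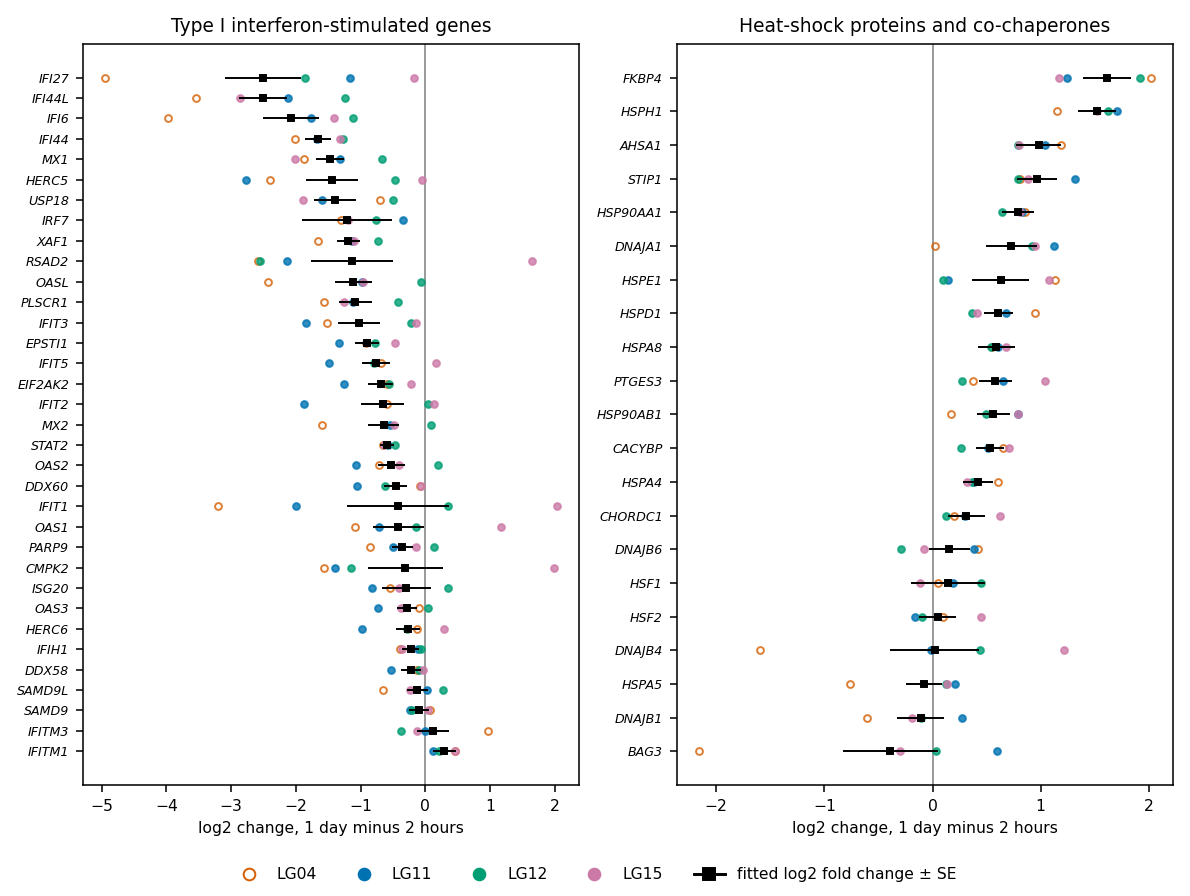
Log2 change from 2 hours to 1 day (x axis) of tested type I interferon-stimulated genes (left, 1 not shown) and heat-shock genes (right). Circles are the 4 animals, open for LG04, and black squares with bars are the fitted log2 fold changes with their SE. All interferon-stimulated genes shown except IFITM1 and IFITM3 have fitted values below 0, and 18 of 21 heat-shock genes have them above it.

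Of 24 genes listed for the interferon-gamma response, 18 were tested and 0 passed in edgeR. DESeq2 called 1 lower, beside 0.367% of all genes. At an unadjusted p of 0.05, 10 were lower and 2 higher, beside 5.48% and 7.12% of all genes. Without the library labelled LG04 at 1 day, 6 were lower and 2 higher, beside 3.47% and 3.46%. The median was -0.51 with it and -0.40 without it.

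NR4A2 (identifier 4929), an orphan nuclear receptor made quickly after antigen-receptor signals, had 69.3, 94.4, 102 and 73.9 CPM at 2 hours and 37.5, 34.6, 38.9 and 30.03 CPM at 1 day. The 1 day libraries lay within 30.0 to 38.9 CPM, all below the 2 hour range of 69.3 to 101.7 CPM. It fell, with a log2 fold change of -1.26 ± 0.18 (adjusted p = 0.017), and -1.37 ± 0.20 (adjusted p = 0.03) without the library labelled LG04 at 1 day. Its mean was 166 ± 25.9 CPM before treatment and 98.3 ± 33.6 CPM at 30 minutes, so the 4 means descended in the order of the sampling times.

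Its family members did not pass. NR4A3 had 13.9, 11.3, 11.5 and 10.99 CPM at 2 hours and 3.94, 5.86, 1.16 and 5.53 CPM at 1 day, without overlap (-1.45 ± 0.36, adjusted p = 0.22), and NR4A1 had 42.8, 57.99, 41.8 and 33.97 CPM at 2 hours and 17.1, 36.8, 26.7 and 24.1 CPM at 1 day (-0.75 ± 0.29, adjusted p = 0.32). CSRNP1, an immediate-early nuclear protein named here after its values were seen, had 156, 104, 100.2 and 241 CPM at 2 hours and 51.2, 60.5, 62.7 and 70.3 CPM at 1 day, with no overlap. Its log2 fold change of -1.21 ± 0.21 stood just outside the threshold (adjusted p = 0.059), and it passed in DESeq2 (6e-05). Without the library labelled LG04 at 1 day, edgeR gave -1.085 ± 0.22 (adjusted p = 0.22).

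Of 32 immediate-early genes listed, 29 were tested, 1 fell (NR4A2) and 0 rose, beside 0.0693% of all genes lower. The median was -0.63, and 19 members were lower in all 4 animals, beside 9.16% of all genes. DESeq2 called 5 lower, beside 0.367% of all genes. At an unadjusted p of 0.05, 12 were lower and 0 higher, beside 5.48% and 7.12% of all genes. Without the library labelled LG04 at 1 day, 14 were lower and 0 higher, beside 3.47% and 3.46%. There NR4A2 passed and the median was -0.58. The AP-1 subunits gave -0.90 ± 0.24 for FOS, -1.42 ± 0.32 for FOSB and -1.20 ± 0.39 for JUN, with adjusted p of 0.22, 0.16 and 0.28. DUSP1, a phosphatase that switches off MAP kinases, had 406, 841, 268 and 340.2 CPM at 2 hours and 114, 585, 143 and 138 CPM at 1 day (-1.08 ± 0.22, adjusted p = 0.12). In JUNB (-0.49 ± 0.56) and EGR1 (-0.71 ± 0.39) the animals spread widely, and the adjusted p were 0.79 and 0.49.

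NF-kB is a transcription factor of inflammation that also induces its own inhibitors. Of 24 tested genes of that group 0 passed in edgeR and 2 were called lower by DESeq2, beside 0.367% of all genes. The median was -0.37, and -0.24 without the library labelled LG04 at 1 day. At an unadjusted p of 0.05, 9 were lower and 0 higher, beside 5.48% and 7.12% of all genes. Without that library 6 were lower and 1 higher, beside 3.47% and 3.46%. TNFAIP3, a ubiquitin-editing inhibitor, had 233, 242, 298 and 225 CPM at 2 hours and 174, 167, 108 and 175 CPM at 1 day, with no overlap (-0.69 ± 0.20, adjusted p = 0.23). NFKBIA, the inhibitor that holds NF-kB in the cytoplasm, gave -0.53 ± 0.15 (adjusted p = 0.24). PTGS2, the inducible cyclooxygenase, had 24.7, 66.1, 12.3 and 50.5 CPM at 2 hours and 12.5, 13.03, 4.64 and 15.8 CPM at 1 day (-1.74 ± 0.39, adjusted p = 0.16), and passed in DESeq2 (0.017). Without the library labelled LG04 at 1 day, edgeR gave -1.76 ± 0.45 (adjusted p = 0.39).

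NFIL3 (identifier 4783), a basic leucine zipper repressor of the clock and of immune genes, had 153, 195, 68.2 and 171 CPM at 2 hours and 53.9, 140.4, 24.4 and 58.1 CPM at 1 day. LG04, LG12 and LG15 dropped to similar degrees and LG11 less, with changes of -1.50, -0.47, -1.47 and -1.55 on the log2 scale. It fell, with a log2 fold change of -1.23 ± 0.18 (adjusted p = 0.017), and did not pass without the library labelled LG04 at 1 day (-1.18 ± 0.21, adjusted p = 0.093). Its mean was 79.6 ± 32.3 CPM before treatment and 97.8 ± 56.2 CPM at 30 minutes. At 2 hours the mean was 147 ± 55.2 CPM, the highest of the 4 times, and at 1 day 69.2 ± 49.8 CPM. NFIL3 was the only 1 of 20 tested clock genes to pass, beside 0.0693% of all genes lower, and their median was 0.02. Without the library labelled LG04 at 1 day the median was -0.07 and 0 passed. There 1 was higher and 4 were lower at an unadjusted p of 0.05, beside 3.46% and 3.47% of all genes. PER1, a clock repressor that glucocorticoids also induce, had 126, 121, 136 and 213 CPM at 2 hours and 83.5, 57.4, 73.7 and 130.0 CPM at 1 day (-0.80 ± 0.32, adjusted p = 0.33).

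Glucocorticoids induce a well-known set of leukocyte genes, of which 21 were tested and 0 passed in edgeR. DESeq2 called 1 lower, beside 0.367% of all genes. That 1 was DUSP1, which is also on the immediate-early list. NFKBIA, given above with the NF-kB genes, is on this list too, so the lists are not separate sets of genes. The median was -0.53, and -0.56 without the library labelled LG04 at 1 day. At an unadjusted p of 0.05, 8 and 6 members were lower, beside 5.48% and 3.47% of all genes. FKBP5, a co-chaperone that dampens the glucocorticoid receptor, had 417, 1070, 863 and 599.5 CPM at 2 hours and 366, 202, 377 and 350.1 CPM at 1 day, and the groups did not overlap. The log2 difference was -0.19 in LG04 and -2.40 in LG11, and the fit gave -1.13 ± 0.37 (adjusted p = 0.28). TSC22D3, the glucocorticoid-induced leucine zipper, had log2 differences of 0.62, -0.69, -0.87 and 0.49, in both directions (adjusted p = 0.89).

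RBM3 (identifier 5935), an RNA-binding protein induced by mild cold, had 281, 305, 296 and 252 CPM at 2 hours and 131, 221, 144 and 112 CPM at 1 day. The groups did not overlap, and LG11 stayed the highest at 1 day. It fell, with a log2 fold change of -0.93 ± 0.14 (adjusted p = 0.025), and did not pass without the library labelled LG04 at 1 day (-0.89 ± 0.17, adjusted p = 0.13). Its cold-inducible relative CIRBP, named after its values were seen, had 183, 193, 259.8 and 244 CPM at 2 hours and 119.6, 116, 153 and 142 CPM at 1 day, also with no overlap. CIRBP had log2 differences of -0.61, -0.73, -0.76 and -0.78, an even size in the 4 animals, and the fit gave -0.73 ± 0.13 (adjusted p = 0.088 in edgeR and 0.00011 in DESeq2).

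SLC15A2 (identifier 6565), a proton-coupled transporter of di- and tripeptides, had 6.02, 10.4, 32.04 and 6.995 CPM at 2 hours and 28.2, 36.1, 78.9 and 24.5 CPM at 1 day. LG12 was the highest at both times, and its 2 hour value lay above the 1 day values of LG04 and LG15. The level rose in each animal, with a log2 fold change of 1.71 ± 0.22 (adjusted p = 0.0094) and 1.69 ± 0.24 (adjusted p = 0.03) without the library labelled LG04 at 1 day. At the earlier times its means were 24.9 ± 11.9 CPM before treatment and 25.1 ± 16.4 CPM at 30 minutes, above the 2 hour mean of 13.9 ± 12.3 CPM.

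**Figure D4:**
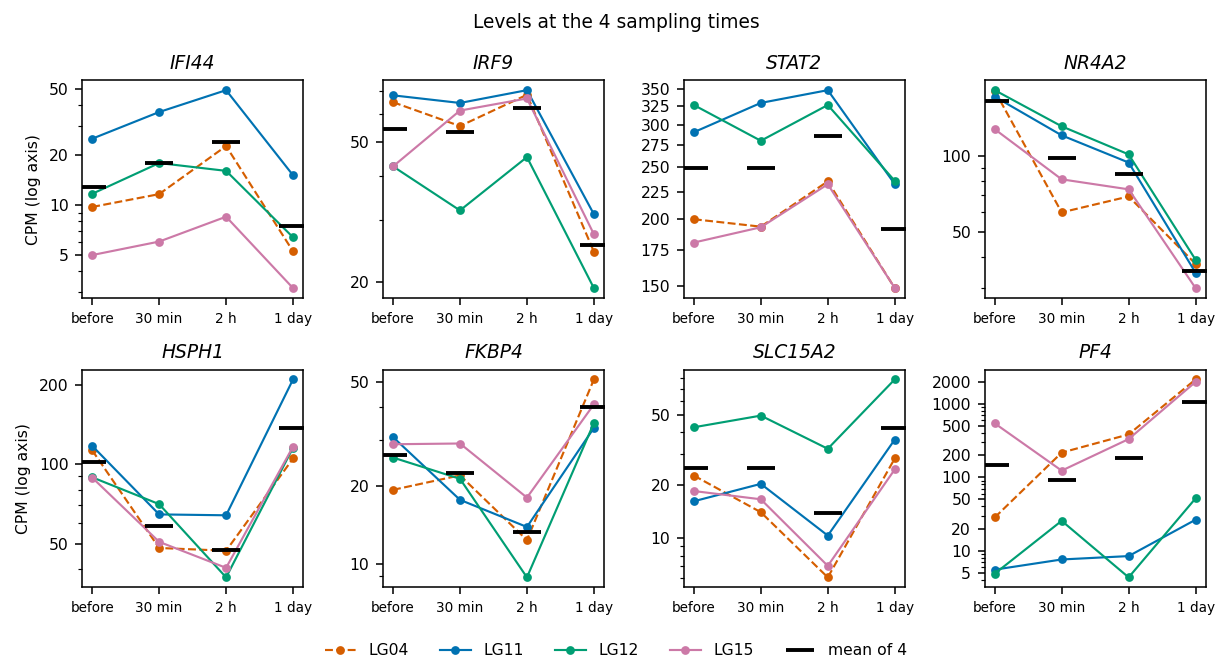
CPM (y axis, log scale, a range of its own in each panel) of 8 genes at the 4 sampling times (x axis). Lines are animals as labelled, dashed for LG04, and black bars are means of the 4 libraries. IRF9 had a 1 day mean of 25.4 CPM after 62.5 CPM at 2 hours, and SLC15A2 one of 42.0 CPM after 13.9 CPM.

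Small nucleolar RNAs guide the chemical modification of ribosomal RNA and are mostly cut from introns of host genes. SNORA68 (identifier 26780) had 6.33, 2.17, 3.68 and 10.5 CPM at 2 hours and 47.3, 5.26, 24.4 and 41.5 CPM at 1 day, from 17 to 21 counts per library at 2 hours and 42 to 105 at 1 day. It rose, with a log2 fold change of 2.27 ± 0.36 (adjusted p = 0.025), with LG11 far below the other animals at 1 day, and did not pass without the library labelled LG04 at 1 day (1.90 ± 0.33, adjusted p = 0.093). Of 20 small nucleolar RNAs tested, this was the only 1 to pass, beside 0.0346% of all genes higher. The median was 0.85, and 0.89 without the library labelled LG04 at 1 day. At an unadjusted p of 0.05, 10 and 9 members were higher, beside 7.12% and 3.46% of all genes, and 0 lower. DESeq2 called 5 higher, beside 0.367% of all genes. The median difference was largest in LG12 at 2.20, beside 0.71, 0.39 and 0.52 in LG04, LG11 and LG15.

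SNORA54, another guide RNA of the group, had 386, 128, 163 and 271 CPM at 2 hours and 627, 427, 928 and 719.9 CPM at 1 day. These groups did not overlap, and the log2 fold change was 1.52 ± 0.29 (adjusted p = 0.094 in edgeR and 0.00035 in DESeq2). Without the library labelled LG04 at 1 day, edgeR gave 1.63 ± 0.325 (adjusted p = 0.21). SNORA21 (1.90 ± 0.40) and SNORA8 (1.56 ± 0.30) had adjusted p of 0.13 and 0.094. Host genes are given here for these RNAs, which did not pass in edgeR, and not for SNORA68. Those hosts did not share the direction. RPL23, which carries SNORA21 in an intron, gave -0.34 ± 0.15. NAP1L4 (SNORA54) and TAF1D (SNORA8) gave -0.02 ± 0.11 and -0.28 ± 0.25, and 0 of these 3 hosts, named after their values were seen, passed. Whether the recovery of short RNAs differed between libraries was not tested.

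Platelet transcripts had the largest median of the 40 lists, yet 0 of 13 tested members passed. Their median log2 fold change was 1.90, or 1.57 without the library labelled LG04 at 1 day. In all 4 animals 12 of 13 were higher, beside 11.3% of all genes. At an unadjusted p of 0.05, 12 were higher with that library and 4 without it, beside 7.12% and 3.46% of all genes. DESeq2 called 1 (GP1BA), beside 0.367% of all genes. Summed over the markers, the level ran from 182 to 6810 CPM at 2 hours and from 837 to 33610 CPM at 1 day, and GP1BB was at 0. PF4, the chemokine platelet factor, had 383, 8.44, 4.33 and 331 CPM at 2 hours and 2153, 26.4, 51.7 and 1992 CPM at 1 day. LG04 and LG15 were high at both times and LG11 and LG12 low at both, so the groups overlapped, while each animal was higher at 1 day (2.46 ± 0.72, adjusted p = 0.24). PPBP, the precursor of further platelet chemokines, had 2140, 166, 122 and 3187 CPM at 2 hours and 18720, 415, 644 and 14730 CPM at 1 day (2.38 ± 0.79, adjusted p = 0.28).

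Neutrophil markers had the most negative median, -1.53, or -1.08 without the library labelled LG04 at 1 day, and again 0 of 13 passed in either tool. With it 5 were lower at an unadjusted p of 0.05, and without it 2, beside 5.48% and 3.47% of all genes. Their summed level ran from 129 to 2629 CPM at 2 hours and from 172 to 432 CPM at 1 day, with DEFA4 at 0. LG12 went the other way, with a median difference of 0.76 beside -1.60, -1.37 and -2.40 in LG04, LG11 and LG15. MPO, the granule peroxidase, had 56.9, 5.91, 0.866 and 97.9 CPM at 2 hours and 23.6, 1.55, 0 and 33.2 CPM at 1 day (-1.53 ± 0.48, adjusted p = 0.28). CSF3R, the receptor for the neutrophil growth factor, had 68.98, 41.96, 25.98 and 267 CPM at 2 hours and 40.1, 74.4, 31.3 and 50.2 CPM at 1 day, higher at 1 day in LG11 and LG12 (adjusted p = 0.73). FCAR, the IgA receptor of myeloid cells, had 36.1, 70.9, 8.66 and 89.9 CPM at 2 hours and 7.23, 25.6, 2.32 and 10.3 CPM at 1 day (-2.09 ± 0.53, adjusted p = 0.22).

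Monocyte markers split the animals into pairs. All 21 had a negative fitted value, with 0 passing in either tool. Their median was -0.53, or -0.20 without the library labelled LG04 at 1 day. At an unadjusted p of 0.05, 1 was lower, near the 5.48% of all genes. The median differences were -2.0 in LG04, 0.37 in LG11, 0.54 in LG12 and -1.69 in LG15, so the fitted median describes no single animal. The library labelled LG04 at 1 day lay nearest to LG15 at 1 day. Its difference and that of LG15 may therefore not come from separate animals. VCAN, a matrix proteoglycan of classical monocytes, had 2248, 2039, 356 and 2405 CPM at 2 hours and 369, 2843, 367 and 422 CPM at 1 day. CD14, the lipopolysaccharide co-receptor, had 59.04, 23.3, 6.93 and 72.9 CPM at 2 hours and 14.5, 68.2, 23.8 and 32.4 CPM at 1 day, higher at 1 day in LG11 and LG12 and lower in the others. The summed level ran from 1484 to 8734 CPM at 2 hours and from 1619 to 10200 CPM at 1 day.

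Red-cell markers were as uneven, with median differences of -2.97, -0.09, 1.95 and 1.80 and 0 of 15 passing in either tool or at an unadjusted p of 0.05. The fitted median was 0.45, with 10 members positive and 5 negative. Without the library labelled LG04 at 1 day it was 1.17, all 15 were positive and 0 passed in edgeR. In that fit 2 were higher at an unadjusted p of 0.05, beside 3.46% of all genes. Their part, and that of platelet, neutrophil and monocyte RNA, in the changes of other genes was not tested. With all globin genes taken out of the counts, 12 genes passed, the same 12.

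Lymphocyte markers differed less between animals, but T-cell and NK-cell markers did not move 1 way in all of them. All 14 tested B-cell markers had a positive fitted value, with a median of 0.37 (0.55 without the library labelled LG04 at 1 day). Of these 0 passed in either tool and 4 were higher at an unadjusted p of 0.05, beside 7.12% of all genes. MS4A1, which encodes CD20, had 54.8, 60.2, 275 and 32.97 CPM at 2 hours and 57.2, 79.4, 356 and 53.7 CPM at 1 day (0.38 ± 0.27, adjusted p = 0.62). The 22 T-cell markers had a median of 0.22, or 0.10 without that library, and the 12 NK-cell markers one of -0.31, or -0.19, with 0 passing in either list and tool. In LG04, LG11, LG12 and LG15, the T-cell median differences were 0.585, -0.08, -0.04 and 0.46. The NK-cell ones were -0.48, -0.78, 0.08 and 0.24. Only 2 T-cell markers were higher and 1 NK-cell marker lower at an unadjusted p of 0.05, near the 7.12% and 5.48% of all genes. CD3E, a subunit of the T-cell receptor complex, had 66.3, 81.3, 138 and 122 CPM at 2 hours and 137, 77.5, 137 and 111 CPM at 1 day, a log2 difference of 1.04 between the libraries labelled LG04 beside -0.14 to -0.01 in the other 3 animals.

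**Figure D5:**
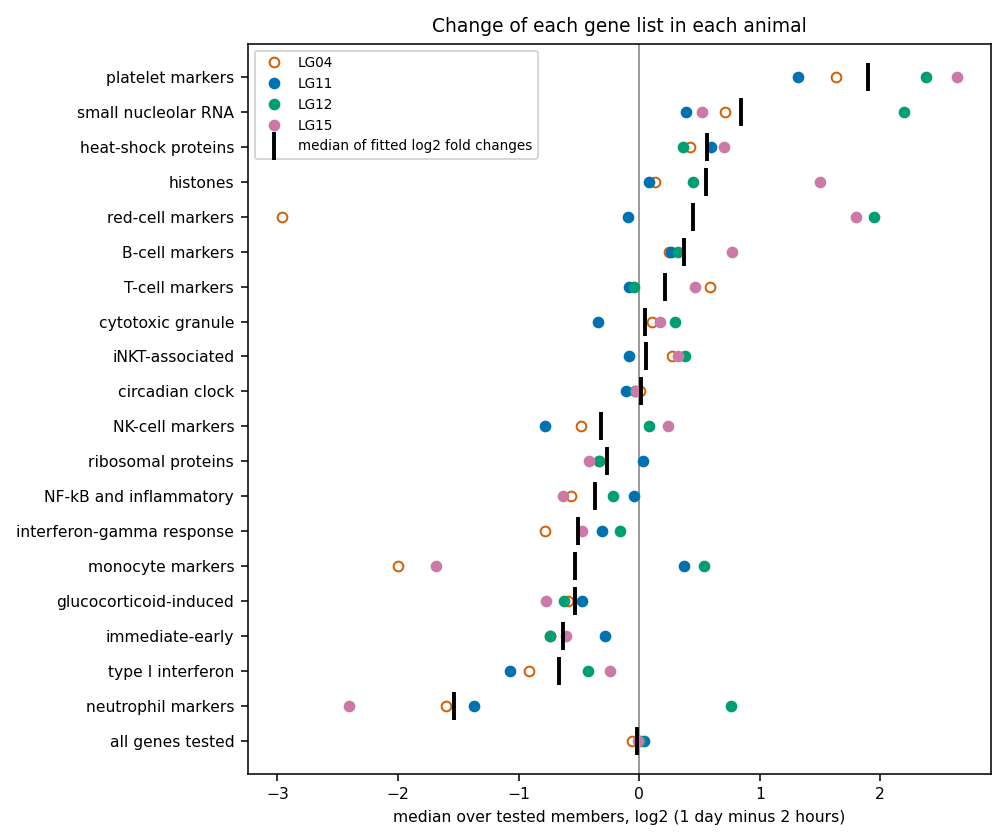
Median log2 change from 2 hours to 1 day (x axis) over the tested members of 19 gene lists and over all genes tested (y axis). Circles are the animals, open for LG04, and black bars the medians of the fitted log2 fold changes. Platelet markers lie above 0 in each animal and type I interferon genes below it, while monocyte and red-cell markers lie on both sides.

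A panel of 13 genes held iNKT and activation genes together with the cell markers CD3E, CD14, MS4A1 and NCAM1, and 0 of them passed in edgeR or DESeq2. At an unadjusted p of 0.05, 2 were higher and 2 lower, beside 7.12% and 5.48% of all genes. Without the library labelled LG04 at 1 day, 1 was higher and 1 lower, beside 3.46% and 3.47%. ZBTB16, the transcription factor PLZF that directs iNKT development, had 23.5, 13.99, 9.31 and 26.98 CPM at 2 hours and 15.8, 2.03, 5.22 and 17.8 CPM at 1 day. It was lower in each animal, most in LG11, with overlapping groups (-1.12 ± 0.57, adjusted p = 0.45). TBX21, the transcription factor T-bet of interferon-gamma producing lymphocytes, had 31.3, 27.97, 23.8 and 32.97 CPM at 2 hours and 45.99, 35.03, 48.2 and 52.2 CPM at 1 day. Its groups did not overlap, the fit gave 0.65 ± 0.18 (adjusted p = 0.23), and the value was 0.62 ± 0.21 without the library labelled LG04 at 1 day. Before treatment TBX21 had a mean of 50.2 ± 13.2 CPM, near its 1 day mean of 45.3 ± 7.33 CPM.

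IFNG, the interferon-gamma gene, had 1.51, 4.22, 1.51 and 0.999 CPM at 2 hours and 1.97, 3.95, 4.06 and 3.16 CPM at 1 day, low levels with overlapping groups (0.54 ± 0.47, adjusted p = 0.7). CD69, an early activation marker, had 95.2, 177, 165 and 68.5 CPM at 2 hours and 165, 78.8, 66.8 and 155 CPM at 1 day. It was lower at 1 day in LG11 and LG12. It was higher under the labels LG04 and LG15, whose 1 day libraries lay closest together and may not be separate animals. GATA3, a regulator of type 2 cytokines, gave 0.55 ± 0.24 (adjusted p = 0.37). Of 29 iNKT-associated genes 0 passed in either tool, and the median was 0.05. At an unadjusted p of 0.05, 4 were higher and 0 lower, beside 7.12% and 5.48% of all genes. Of 16 cytotoxic granule genes 0 passed, 0 had an unadjusted p under 0.05, and the median was also 0.05. The medians were 0.08 and 0.03 without the library labelled LG04 at 1 day.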

How the data were processed

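Total RNA from mononuclear cells of 4 macaques was sequenced by the submitters at 4 times, 1 library per animal and time, and the labels name separate animals. The deposited values used are raw read counts per gene, in tables that pair an animal's pre-treatment column with 1 later time, for 24369 entries named by human gene symbols. Per the submitters' processing notes, the tools were STAR, HTSeq, FastQC, Trimmomatic, edgeR and DESeq and the builds hg19 and GRCh37, both human, without versions or roles. Reads appear to have been counted against human gene models, in which case divergent macaque genes may be undercounted. Another deposited table for 2 hours was left out, because its LG04 column equals the 1 day library in 24369 of 24369 entries. Deposited FPKM tables were not used. Values of 2 genes are not reported here.

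Entries were summed to 23602 symbols. edgeR 4.0.16 (R 4.3.3, TMM factors, filterByExpr, quasi-likelihood F test) fitted time and animal over all 16 libraries, with 9 residual degrees of freedom, and p-values were adjusted by Benjamini-Hochberg over 11545 genes. SE is the log2 fold change divided by the root of F. Log2 differences per animal use a prior count of 2. DESeq2 1.42.0 was the second tool. Pairing rests on the animal: the correlation of deviations from the group means between an animal's own 2 libraries was 0.42 in LG04, 0.72 in LG11, 0.72 in LG12 and 0.44 in LG15, and 0.55 between LG04 at 2 hours and LG15 at 1 day.

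The comparison, the 40 gene lists (39 groups and the panel of 13 genes) and the rules were chosen with earlier results of these data known, so lists are described by counts and medians without a test. Named were the called genes, filled to 10 per direction by smallest p among genes moving 1 way in all 4 animals, each list's called members and its 3 smallest p, and the panel. Genes said to be named after their values were seen, other than CSRNP1 and CCR9, and some further list members shown as background, fall outside that rule. Alternatives changed the scaling, the filter, the tool, the animal term, the libraries and the globin genes. Counts cover reads without molecular identifiers, so copies of 1 molecule cannot be set apart. Their precision may therefore be poorer than counting error alone.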

Additional observations from a re-analysis of the deposited data

Results flagged for a closer look

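In 128 named genes and 40 list medians, the log2 difference between 1 day and 2 hours was examined for 1 animal standing apart from the other 3, by a Dixon ratio above its critical value for 4 samples. Chance alone gives about 1 in 20 such groups. Here 8 were found, 2 with LG04, 3 with LG11, 1 with LG12 and 2 with LG15. That number is near the share given by chance, so the values below are descriptions only.

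In LG11, NFIL3 differed by -0.47, beside -1.55 to -1.47 in the other animals, ZBTB16 by -2.56, beside -0.79 to -0.56, and the NK-cell receptor NCR1 by -1.27, beside -0.50 to -0.36. TNFAIP3 differed by -1.46 in LG12, beside -0.54 to -0.36. For LG15, the platelet receptor GP1BA differed by 4.86, beside 2.04 to 2.38, on 3 counts at 2 hours and 140 at 1 day, and the B-cell median was 0.77, beside 0.25 to 0.32. With the libraries labelled LG04, whose 1 day library went against its label, CD3E differed by 1.04, beside -0.14 to -0.01 and the median of genes for heme and iron handling was -1.93, beside -0.09 to 0.16.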

How the results depend on the processing

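Each of the 12 called genes kept its direction in 13 of 13 alternatives, but the number of calls did not hold. Against 12 calls (4 higher, 8 lower), DESeq2 gave 130 (65 higher, 65 lower), of which 24 were genes edgeR's filter had removed and 23 had a log2 fold change beyond 10 in size. Without a filter on low counts 17 passed, 7 of them higher. The paired design mattered: with no replicate block 0 genes passed, 0 higher and 0 lower, and 624 had an unadjusted p under 0.05. Fitting only the 8 libraries gave 15 (13 higher, 2 lower), sharing HSPH1 alone with the 12. Without the 1 day library of LG04, 6 passed (3 higher, 3 lower). The counts were 0, 0 higher and 0 lower without the 1 day libraries of LG04 and LG15, an alternative chosen after seeing the data, and likewise 0, 0 and 0 without the 4 shallowest libraries, with 697 and 423 genes at an unadjusted p under 0.05. Leaving out 1 animal gave 0 to 2 calls, 0 to 1 higher and 0 to 1 lower. Apart from fewer samples in these fits, the cause was not tested. Size factors of DESeq2's kind in edgeR gave 13 calls, and 12 stood with globin genes taken out.

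Of 520 list medians recomputed, 18 moved by more than the spread between animals. Of 1670 values of named genes, 98 lost and 27 gained a call. Only the 12 called genes had a call to lose, so all 98 were theirs. Each of the 12 passed in only 4 to 7 of the 13 alternatives. A reversal was counted only for a gene called in either fit, or a list median larger than that spread, and 0 were found. Other values did change sign. CD14 went from -0.01 to 0.435 without the library labelled LG04 at 1 day. The monocyte median went from -0.53 to 0.35 without the 1 day libraries of LG04 and LG15. Low counts limit IFI44L, IFI27 and SNORA68. The fit borrows its spread from the other times, and with 4 animals a shared response and 1 odd library are hard to separate.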

Other observations

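When only the 8 libraries of 2 hours and 1 day entered the fit, the genes that passed were of other kinds. That fit included the library labelled LG04 at 1 day and was not run without it. Each of its 15 called genes had an adjusted p of 0.046 in edgeR, just inside the threshold. Higher at 1 day were 12 genes besides HSPH1, among them the platelet chemokine PF4V1, the tetraspanin CD9, the myosin light chain MYL9 and the phosphodiesterase PDE3A. PF4V1 had 97.3, 6.27, 3.46 and 130.9 CPM at 2 hours and 942, 22.7, 31.3 and 833 CPM at 1 day in LG04, LG11, LG12 and LG15, a log2 fold change of 2.73 (edgeR, adjusted p = 0.046) that had an adjusted p of 0.27 over 16 libraries. CD9 had 296, 62.2, 10.4 and 207 CPM and then 1365, 169.5, 50.5 and 1047 CPM. Lower were BPI and DEFA5, both antimicrobial proteins of granules. BPI had 43.1, 16.6, 0.216 and 61.0 CPM at 2 hours and 10.5, 3.11, 0 and 13.4 CPM at 1 day, a log2 fold change of -2.22 (adjusted p = 0.046). These names were chosen after their values were seen.

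Ribosomal protein genes had a narrow range of values. All 42 tested had a negative fitted log2 fold change, with a median of -0.27 (-0.26 without the library labelled LG04 at 1 day). Of these 0 passed in edgeR or DESeq2 and 3 were lower at an unadjusted p of 0.05, near the 5.48% of all genes. LG11 had a median difference of 0.03, beside -0.33, -0.33 and -0.41 in LG04, LG12 and LG15. Histone genes had a median of 0.56 (0.64 without that library) over 18 tested, with 0 passing in edgeR. At an unadjusted p of 0.05, 6 were higher, beside 7.12% of all genes, and DESeq2 called 1 higher, beside 0.367%. HIST2H2BE, a histone H2B gene whose transcript can be polyadenylated, had 28.01, 12.4, 9.31 and 11.99 CPM at 2 hours and 90.02, 19.4, 20.9 and 66.8 CPM at 1 day (log2 fold change 1.5, adjusted p = 0.22). CCR9, the receptor that homes lymphocytes to the gut and named after its values were seen, had 7.53, 5.43, 4.98 and 7.49 CPM at 2 hours and 38.8, 7.89, 8.71 and 28.4 CPM at 1 day, with no overlap between the groups (1.36 ± 0.33, adjusted p = 0.19 in edgeR and 0.027 in DESeq2). Without the library labelled LG04 at 1 day, edgeR gave 1.065 ± 0.32 (adjusted p = 0.53).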
